A study of Mus musculus with 2 samples.

Results

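Eosinophil progenitors were followed here as the cells whose RNA carried the granule genes of the eosinophil lineage. A cell was taken when it held at least 10 UMIs (unique molecular identifiers, each standing for 1 captured RNA molecule) of Prg2, at least 1 UMI of Epx or Prg3, and fewer than 50 UMIs of Jchain, a plasma cell transcript. Cells with fewer than 500 detected genes or with more than 10% mitochondrial UMIs had been left out, and doublets had not been removed. The rule found 59 of 9632 kept cells: 41 of 4702 in the WT library and 18 of 4930 in the KO library.

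The study introduced RUNX1-S291fs, a frameshift form of the transcription factor RUNX1, into mouse bone marrow cells with a vector that also marks them with green fluorescent protein (GFP). Donor marrow was either wild type (WT) or lacked Phf6 (KO), a chromatin-associated PHD finger gene. GFP+ cells were transplanted, and GFP+ cells without mature lineage markers (Lin-) were sorted from recipient marrow 8 weeks later. Both libraries therefore carry the RUNX1-S291fs vector, no library without it was analysed here, and the only difference in the labels is the Phf6 genotype. Each genotype was measured as 1 10x Genomics 3′ library, so no p-value was computed and every interval below covers counting error only, not the spread between mice. The labels do not give the strain, the age, how Phf6 was deleted or which part of it is missing, nor whether marrow of several recipients was pooled.

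Eosinophils arise in the marrow from granulocyte progenitors under the combined action of GATA1, GATA2 and C/EBP factors, and interleukin 5 drives their expansion through the receptor encoded by Il5ra. Before they mature, the precursors fill specific granules with basic proteins: major basic protein from Prg2, its homologue from Prg3, eosinophil peroxidase from Epx and the eosinophil-associated ribonucleases from the Ear genes. Their RNA peaks in precursors, while surface molecules of mature eosinophils such as Ccr3 come later. Prg2 is also made by other cells, and a plasma cell transcript was therefore part of the rule.

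On the GRCm38 build, Prg2 lies at chr2:84980461-84983632 and Prg3 at chr2:84988215-84993886, both on the plus strand and 4582 bases apart. Epx lies on the minus strand at chr11:87864000-87875536 and Il5ra on the minus strand at chr6:106710357-106749037. The 250 bases before the start sites of Prg3, Epx and Il5ra are shown because RNA of these genes was found together in the same cells. They are from RefSeq (GRCm38.p6), read 5′ to 3′ along the gene, and capitals mark GATAA on either strand, so its reverse complement TTATC is in capitals too.
Prg3, plus strand, chr2:84987965-84988214: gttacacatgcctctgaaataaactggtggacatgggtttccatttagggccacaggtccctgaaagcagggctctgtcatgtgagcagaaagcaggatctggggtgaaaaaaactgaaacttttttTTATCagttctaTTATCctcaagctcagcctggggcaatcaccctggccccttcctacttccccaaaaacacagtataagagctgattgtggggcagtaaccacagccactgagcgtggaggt
Epx, minus strand, chr11:87875537-87875786: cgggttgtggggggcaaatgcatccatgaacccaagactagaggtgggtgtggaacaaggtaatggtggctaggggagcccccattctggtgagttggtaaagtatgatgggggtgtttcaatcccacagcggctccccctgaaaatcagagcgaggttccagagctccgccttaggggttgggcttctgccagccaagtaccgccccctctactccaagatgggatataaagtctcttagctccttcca
Il5ra, minus strand, chr6:106749038-106749287: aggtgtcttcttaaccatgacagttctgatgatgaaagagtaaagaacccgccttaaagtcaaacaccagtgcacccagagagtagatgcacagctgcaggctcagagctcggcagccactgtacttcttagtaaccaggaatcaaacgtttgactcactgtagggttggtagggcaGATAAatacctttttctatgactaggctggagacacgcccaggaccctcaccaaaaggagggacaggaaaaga
GATAA was present 2 times before Prg3, starting 123 and 111 bases upstream of the start, and 1 time before Il5ra, starting 73 bases upstream. No GATAA was found in the Epx window, which held TATAAA starting 24 bases upstream. GATAA on either strand occurred in 22.6% of 32851 windows of this length in the RefSeq table, and TATAAA in 12.4%. Such a match is a description of the sequence and was not tested for binding. A window for Prg2 was not used here.

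The ribonuclease genes pose a counting problem that their sequences show. Ear1 and Ear2 lie on chromosome 14, at chr14:43818765-43875517 (minus strand) and chr14:44102654-44103534 (plus strand). Their windows aligned with 246 of 252 positions identical (97.6%), and their transcripts with 96.1% identity. The Ear1 window lies before the start of the RefSeq transcript, which is within the longer gene span given above. Capitals mark bases without a match in the other gene.
Ear1, minus strand, chr14:43819640-43819889: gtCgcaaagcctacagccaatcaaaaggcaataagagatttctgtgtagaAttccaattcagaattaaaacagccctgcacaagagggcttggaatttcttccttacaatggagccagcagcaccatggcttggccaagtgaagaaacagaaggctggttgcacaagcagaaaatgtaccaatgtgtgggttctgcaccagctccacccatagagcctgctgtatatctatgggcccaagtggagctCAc
Ear2, plus strand, chr14:44102404-44102653: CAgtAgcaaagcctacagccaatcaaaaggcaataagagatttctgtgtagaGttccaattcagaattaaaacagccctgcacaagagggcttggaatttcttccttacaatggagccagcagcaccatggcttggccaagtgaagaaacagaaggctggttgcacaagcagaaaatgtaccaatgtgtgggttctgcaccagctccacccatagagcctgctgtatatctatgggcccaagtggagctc
Reads from such near-identical copies can be assigned to either gene or discarded, so values for single Ear genes are uncertain. Ear6, at chr14:51853699-51854643, is more distant, with 63.0% transcript identity to Ear1.

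The label was checked against genes that the rule did not use. Il5ra, the interleukin 5 receptor subunit, had a UMI in 25 of 41 WT and 11 of 18 KO cells, against 1.91% and 2.30% of the other kept cells. Siglecf, a lectin of eosinophils, had a UMI in 30 of 41 and 14 of 18 cells, against 15.04% and 10.5% of the other kept cells and 51.9% and 49.4% of basophil-rule cells (10 or more Mcpt8 UMIs and a UMI of Prss34 or Cpa3). Cebpe, a C/EBP factor of granulocyte maturation, had a UMI in 38 of 41 and 15 of 18, against 30.4% and 26.9% of other cells and 76.1% and 73.4% of promyelocyte-rule cells (10 or more Elane UMIs and a UMI of Mpo or Prtn3). Siglecf and Cebpe were thus shared with these classes, and Il5ra was found in 2.47% and 6.90% of basophil-rule cells and in 1.44% and 1.69% of promyelocyte-rule cells. Barcodes with 50 or more Jchain UMIs, which the rule left out, also carried Il5ra, in 11 of 59 in WT and 1 of 7 in KO. Markers of mature eosinophils were near 0: Ccr3 had 1 UMI in the WT cells and 0 in the KO cells, Alox15 had 2 and 0, and Ear10 and Ear14 had none in either library. Each cell was also drawn down to 5000 UMIs. Il5ra was then found in 12 of 35 WT and 5 of 15 KO cells, Siglecf in 7 and 6, and Cebpe in 26 and 13. At that depth 24.7% of WT and 25% of KO basophil-rule cells had Siglecf. The WT eosinophil-rule cells, at 20%, lay below this, and the KO ones, at 40%, above it. Siglecf at equal depth thus did not set the WT cells apart from basophil-rule cells. Il5ra was found in 1.23% and 1.19% of basophil-rule cells, and Cebpe in 38.7% and 34.4% of promyelocyte-rule cells.

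Some cells went against the label. 1 WT cell with 22 Prg2 UMIs held 175 UMIs of Cd74 and 74 of H2-Aa, genes of MHC class II presentation. 1 KO cell with 24 Prg2 UMIs held 218 UMIs of Cd74 and 42 of H2-Aa. Both carried Prg3 (13 and 8 UMIs) but no Epx, Cebpe or Siglecf. Leaving out this pair gave shares of 0.851% and 0.345%.

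1 KO cell had a basophil profile, with 144 UMIs of Mcpt8, 183 of Prss34, 32 of Ms4a2 and 101 of Cpa3 beside 227 of Prg2, 20 of Prg3 and 3 of Epx. Basophil genes were found in WT cells too. The WT cell with 900 Prg2 UMIs held 62 of Mcpt8, 68 of Prss34, 5 of Ms4a2 and 40 of Cpa3. Another, with 2905 of Prg2, held 27 of Mcpt8 and 109 of Prss34. 8 WT and 3 KO cells without Epx held 101 or more UMIs of Elane, neutrophil elastase, and 3 of these WT cells held 105 or more of S100a8. All these cells met the rule and are kept in the values below.

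Eosinophil-rule cells made up 0.872% of kept WT cells (exact Clopper-Pearson 95% interval 0.626% to 1.18%) and 0.365% of kept KO cells (0.217% to 0.576%). The KO share was lower by 0.507 percentage points, with a Newcombe 95% interval of -0.843 to -0.196. Since 1 library stands for each genotype, this compares 2 libraries and not genotypes. Raising or lowering the Prg2 minimum, asking for both Epx and Prg3, or using stricter cell filters left the interval of the difference below 0. Removing the barcodes with the highest Scrublet doublet scores took 14 of the 18 KO cells and 9 of the 41 WT cells, against 4.21% and 4.61% of the other kept cells. The shares were then 0.0849% (4 cells) and 0.715% (32 cells). Of the KO cells with an Epx UMI it took 12 of 13, and of the WT cells with one 9 of 30. The KO cutoff fell within tied scores. KO members with a score of 0.09234 lay on both sides of it, and the order of the barcodes decided which were taken. The KO cell with Epx that was kept had this score. Scrublet's own threshold marked none of the 59. Whether these barcodes hold 2 cells was not tested.

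**Figure D1:**
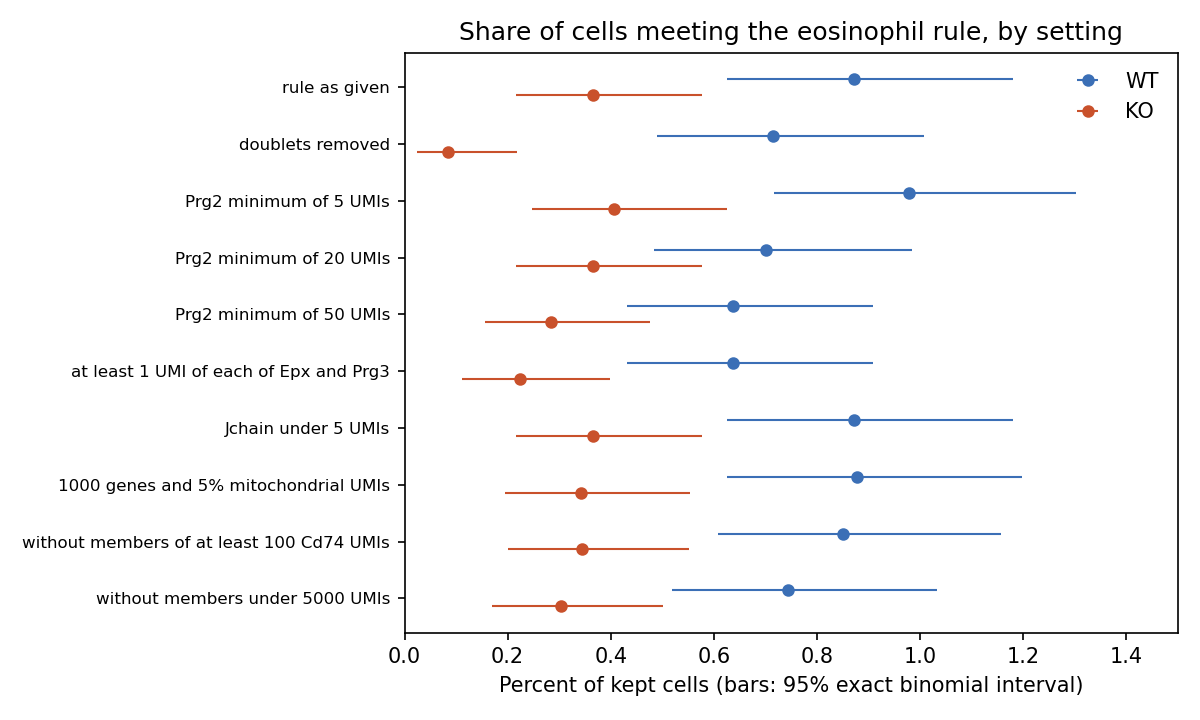
Percent of kept cells that met the eosinophil rule in the WT and KO library (1 each) under the rule as given and its alternatives; points are shares and bars exact 95% binomial intervals. The WT share lies above the KO share in each setting plotted, and the KO share was lowest, at 0.0849%, after doublet removal.

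The granule genes chose these cells, so their levels are described without a test. Prg2 ran from 10 UMIs through a median of 601 to 5556 UMIs per cell in WT and from 24 through 530 to 5484 in KO. In its highest cell it took 23.3% of all UMIs in WT and 19.9% in KO, with medians of 4.65% and 4.92%. Both libraries covered nearly the same range, and the lowest WT cells lay below the lowest KO cell.

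Summed over the cells, Prg2 reached 42370 CPM (UMIs per 1000000 UMIs) in WT and 55350 CPM in KO, against 21.3 and 6.62 CPM in the other kept cells. The eosinophil-rule cells held 94.5% of all Prg2 UMIs of kept cells in WT and 96.9% in KO. They held 90.2% and 84.9% of Prg3 UMIs, and 97.1% and 97.3% of Epx UMIs. To compare cells at 1 depth, UMIs were drawn down to 5000 per cell (6 WT and 3 KO members were too shallow). A Prg2 UMI then remained in 33 of 35 WT members (94.3%) and all 15 KO members, and in 5.20% and 3.14% of the other kept cells. Without thinning those shares of other cells were 18.0% and 11.3% (medians of 25201 and 21953 UMIs per cell before thinning, against 26780 and 27640 in members).

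Jchain-rich barcodes were the other place with Prg2. Barcodes with 50 or more Jchain UMIs (59 WT and 7 KO) had Prg2 at 896 and 777 CPM, but held 2 and 0 UMIs of Prg3 and none of Epx. A further WT barcode held 18 Prg2 UMIs with neither Epx nor Prg3.

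The cells on either side of the Prg2 minimum were compared by value. The 3 lowest WT members had 10 Prg2 UMIs with 4, 13 and 2 Prg3 UMIs, and none had Epx. Just outside, 3 WT cells without Jchain had 9 Prg2 UMIs with 5, 3 and 2 Prg3 UMIs. Their Mpo ran from 140 to 285 UMIs inside and from 93 to 209 outside, and these ranges overlapped. In KO the lowest member had 24 Prg2 UMIs, and the highest cell outside it without Jchain had 7.

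Prg3 ran from 1 through a median of 42 to 356 UMIs per WT cell and from 0 through 29.5 to 186 per KO cell. Its summed level was 2513 CPM in WT and 2636 CPM in KO, a log2 ratio KO over WT of 0.07 (95% counting interval -0.03 to 0.17). Epx, the peroxidase, ran from 0 through 8 to 134 UMIs in WT and from 0 through 11 to 211 in KO. It was found in 30 of 41 and 13 of 18 cells, that is in like shares of both.

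Epx summed to 1034 CPM in WT and 2305 CPM in KO, a log2 ratio of 1.16 (1.03 to 1.28), while Prg2 differed by 0.39 (0.36 to 0.41). Without the highest cell of each library the Epx ratio was 1.08. After doublet removal, with 4 KO cells left, it was -0.09. The 113 KO Epx UMIs then left were all in the same cell. The single-cell ranges of the libraries overlapped, and the 7 KO cells with 1000 or more Prg2 UMIs carried 924 of the 1025 KO UMIs.

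Ear genes set a smaller group apart. Ear1, Ear2 and Ear6 together reached 5 or more UMIs in 16 of 41 WT cells (highest 58) and 3 of 18 KO cells (highest 29). Ear2 had 138 UMIs in WT and 14 in KO, 124 against 31.5 CPM and a log2 ratio of -1.98 (-2.89 to -1.19; -3.84 without the highest cell of each library), and 11 of the 14 KO UMIs came from 1 cell. Ear1 had 64.0 and 45.0 CPM (-0.51, -1.30 to 0.22) and Ear6 54.1 and 31.5 CPM (-0.78, -1.74 to 0.08). Without the highest cell of each library these ratios were -1.955 and -1.246, and 15 of the 20 KO UMIs of Ear1 came from 1 cell. All 3 were lower in KO, and only the interval of Ear2 lay clear of 0. Most Ear2 UMIs lay outside the eosinophil-rule cells, which held 25.7% of its UMIs in WT and 4.47% in KO.

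The 16 WT cells with 5 or more Ear UMIs all had Epx (median 37 UMIs) and a median of 4.5 Mpo UMIs. The 25 WT cells below that had Epx in 14 (median 1 UMI) and a median of 67 Mpo UMIs. Mpo encodes myeloperoxidase of primary granules. The Ear-bearing cells had exceptions to the low median: the WT cell with the most Ear2 UMIs (34) had 328 Mpo UMIs, the highest of the 41, and another with 9 Ear UMIs had 277. Both were among the barcodes with the highest doublet scores. The Ear-bearing cells were also the shallower ones, with a median of 12920 UMIs against 32228, and the part of depth in this was not tested.

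**Figure D2:**
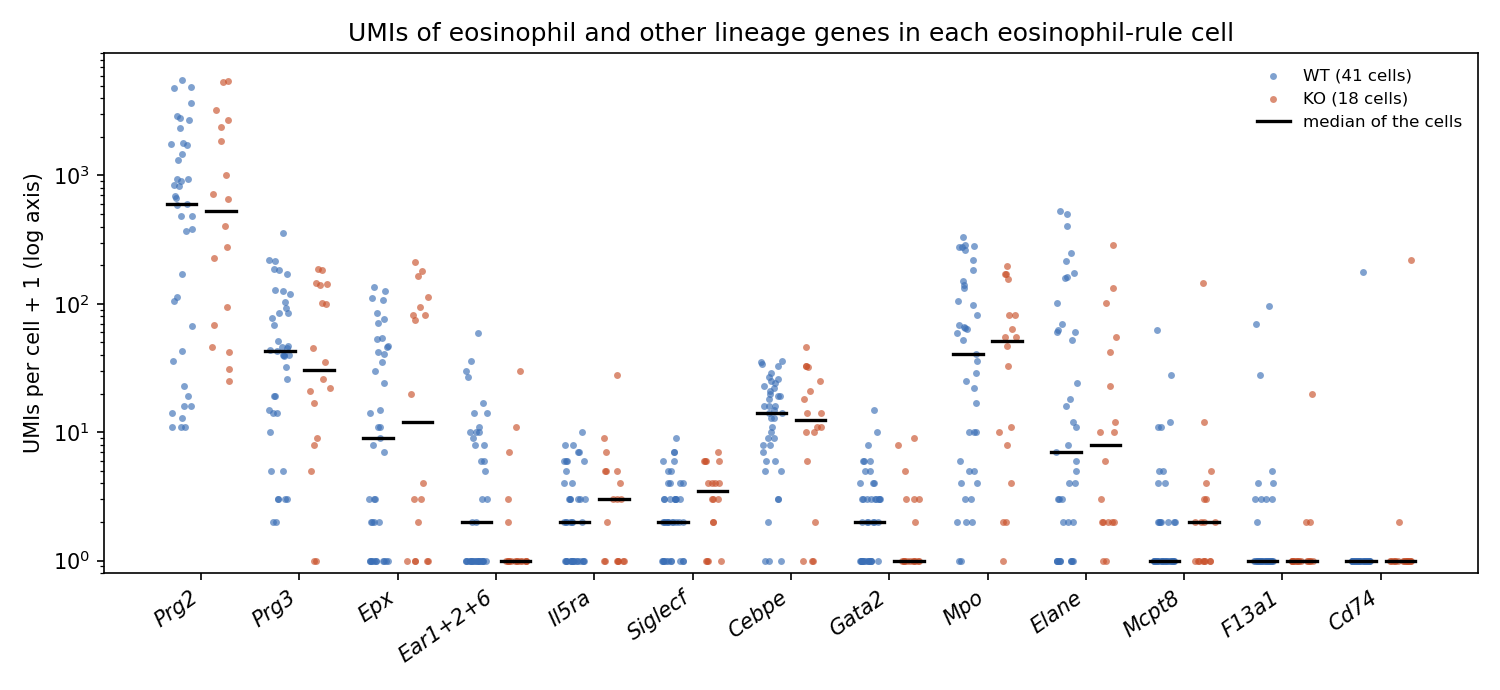
UMIs per cell plus 1 (log axis) of granule, receptor, transcription factor and other lineage genes in the 41 WT and 18 KO eosinophil-rule cells; each point is a cell and the black bar the median. Prg2, Prg3, Epx and Cebpe spread over the same range in both libraries, while the high values of Mcpt8, F13a1 and Cd74 are those of a few cells.

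Within the rule the cells were ordered by Prg2, which the rule used, and other genes were read along that order. Cells with 10 to 99 Prg2 UMIs (12 WT, 6 KO) held an Epx UMI in 2 and 3 cases. Those with at least 100 but under 1000 (16 WT, 5 KO) held a median of 18.5 and 3 Epx UMIs, and those with 1000 or more (13 WT, 7 KO) a median of 52 and 113. Epx, which the rule also used, thus went up along the order in both libraries, and this is a description only.

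Primary granule RNA went the other way. Along the 3 steps Mpo was at 4506, 2904 and 1806 CPM in WT and at 3496, 3323 and 1378 CPM in KO. Elane was at 5730, 1270 and 476 CPM in WT and at 3006, 1909 and 254 CPM in KO. Medians per cell were less regular: Mpo had 145.5, 7 and 40 UMIs in WT and 42, 81 and 46 in KO. The 11 WT and 5 KO cells without Epx had median Mpo of 151 and 170 UMIs, against 18.5 and 32 in the cells with Epx. Cells with Prg3 but no Epx were therefore mostly cells rich in neutrophil-type granule RNA, apart from the Cd74-rich pair.

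Il5ra was at 9.73, 148 and 94.2 CPM along the WT steps and at 7.77, 102 and 260 CPM along the KO steps. In the top step it was found in 12 of 13 WT and 7 of 7 KO cells. Ldhc was at 9.73, 125 and 292 CPM in WT and Rnase12 at 36.5, 186 and 223 CPM, while Arsb was highest in the middle step (126, 981 and 788 CPM). Arsb in the lowest step was still above its 74.8 CPM in other WT cells. Only Ldhc and Rnase12 of these 4 had their WT maximum in the top step.

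Over the 41 WT cells the genes most like Prg2 by Spearman correlation of log CPM, among genes at 100 CPM or more, were Prg3 (0.91), Epx (0.73), Rnase12 (0.70), Lmo4 (0.66), Arsb (0.62), Cebpe (0.52), St6galnac3 (0.52), Atp13a3 (0.51), Ldhc (0.48) and Golim4 (0.46). The same correlations over the 18 KO cells were 0.59, 0.75, 0.56, 0.46, 0.54 and 0.32 for the first 6 and 0.61 for Ldhc. St6galnac3 (0.16), Atp13a3 (-0.05) and Golim4 (-0.08) were near 0 there. Mpo and Elane, chosen after their values were seen, ran against Prg2, at -0.58 and -0.63 in WT and -0.57 and -0.48 in KO, and went together with each other (0.87 and 0.64). These describe cells of 1 library each, which share a depth and a total that Prg2 itself takes up in part. Prg3 and Epx were also part of the rule that chose the cells, so their high correlations are no independent support for the label.

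**Figure D3:**
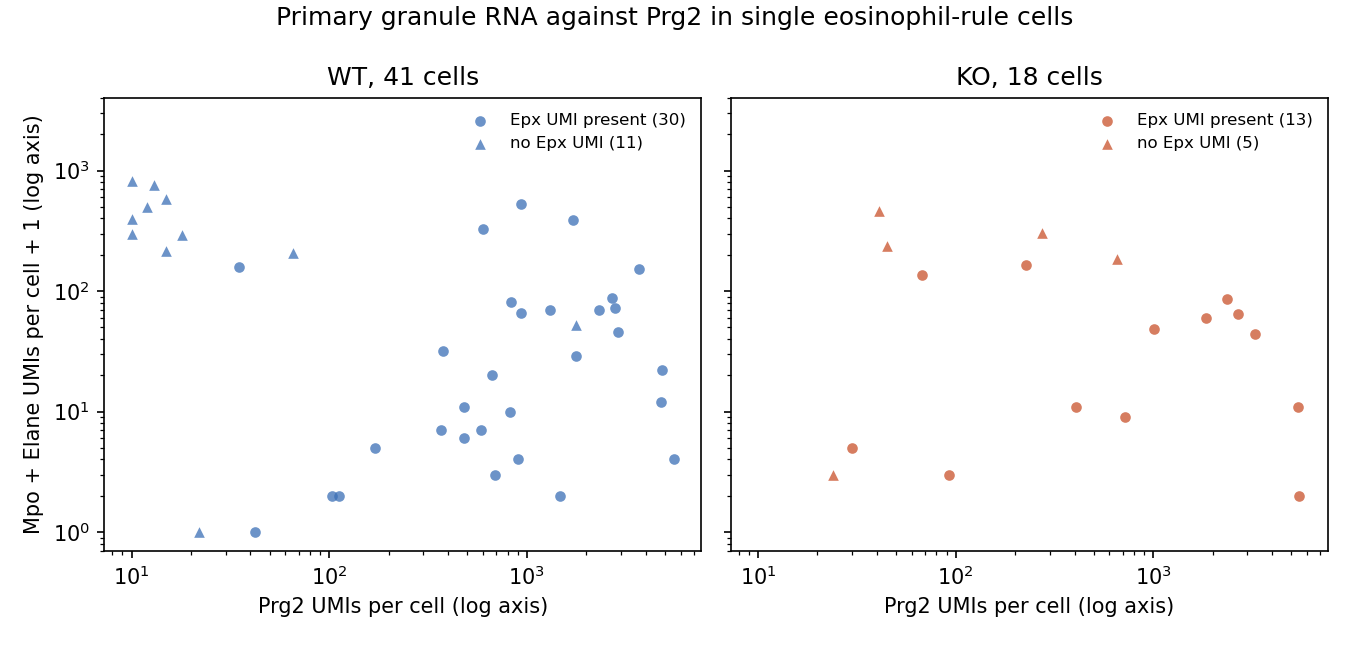
Mpo plus Elane UMIs per cell plus 1 against Prg2 UMIs (log axes) in the 41 WT and 18 KO eosinophil-rule cells, with cells that have an Epx UMI as circles and those without as triangles. Most WT triangles lie at low Prg2 and high Mpo plus Elane, with 1 at high Prg2, while KO triangles reach middle Prg2; the Cd74-rich triangle of each library (22 and 24 Prg2 UMIs) lies at the bottom left.

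The smallest barcodes were described on their own. 6 WT and 3 KO members had under 5000 UMIs, and all 9 held Epx and none held a UMI of Mki67, a proliferation gene. Their Prg2 was at 89383 and 82630 CPM, and Ear2 was found in all 6 WT but none of the 3 KO barcodes. They had 726 to 4636 UMIs in WT and 767 to 4831 in KO, so few other counts, and a gene at 0 in them may have been missed. Without them the KO share of kept cells was 0.304% and the WT share 0.744%.

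Compared with all other kept cells, 186 of 8597 genes tested were at least 2-fold higher in the eosinophil-rule cells of both libraries (2.16%) and 445 at least 2-fold lower (5.18%), not counting the rule's own genes. The cells were picked by their RNA, so the list describes them and is no test. With edgeR's TMM factors in place of totals every KO ratio was 0.15 higher and every WT ratio 0.07 higher on the log2 scale. Among genes at 100 CPM or more in the members of both libraries the highest were Ldhc, Rnase12, Olr1 and Cebpe. Below that level Ear1 (9.83 and 10.38 on the log2 scale) and Il5ra stood higher than Rnase12. Among the lowest were the platelet gene Pf4, the red cell gene Car2 and the neutrophil gene S100a9.

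Ldhc, a lactate dehydrogenase known from testis, ran from 0 through a median of 1 to 31 UMIs per WT cell and from 0 through 3 to 21 per KO cell. It summed to 148 CPM in WT and 263 CPM in KO against 1.04 and 0.73 CPM in other cells, log2 ratios of 7.14 and 8.49. It stood at 9.35 and 11.3 CPM in basophil-rule cells, lower than in the members.

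Rnase12, a member of the ribonuclease A family, ran from 0 through 3 to 14 UMIs in WT and 0 through 1.5 to 18 in KO. It summed to 145 and 196 CPM, 5.41 and 5.98 above other cells on the log2 scale. Basophil-rule cells held 170 and 133 CPM of it, so levels there were close to those in the members. Il5ra, at 75.7 and 142 CPM, stood 5.97 and 6.82 above other cells and had 1.44 and 3.97 CPM in basophil-rule cells.

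Olr1, a scavenger receptor for oxidised lipoprotein, had a median of 9 UMIs in WT (0 to 56) and 7.5 in KO (0 to 60), with 590 and 612 CPM and log2 ratios of 3.69 and 3.87. Its next highest level was in promyelocyte-rule cells, at 108 and 94.3 CPM. Cebpe had a median of 13 UMIs in WT (0 to 35) and 11.5 in KO (0 to 45), with 524 and 609 CPM and log2 ratios of 3.32 and 3.60. Promyelocyte-rule cells held 119 and 109 CPM of Cebpe.

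Enzymes and granule membrane genes formed the next group. Cd63, a granule membrane tetraspanin, reached 1638 and 1860 CPM (2.74 and 3.55). Arsb, the lysosomal arylsulfatase B, reached 588 and 564 CPM (2.98 and 2.70). Hdc, which makes histamine, reached 690 and 816 CPM (2.53 and 2.84), and Lta4h, which makes leukotriene B4, reached 460 and 535 CPM (1.75 and 1.97). Hdc was higher still in basophil-rule cells, at 2859 and 2799 CPM, and Cd63 was at 1181 and 1116 CPM there.

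Some names on the list rested on few cells. Vcam1, an adhesion molecule, was at 199 and 126 CPM (2.92 and 3.54), but 42 of its 56 KO UMIs came from 1 cell that also held 19 UMIs of F13a1, a monocyte gene. Of the other 9 macrophage markers on the list, Adgre1 had 32 and 13 UMIs, C1qa, Hmox1, Slc40a1, Mrc1 and Axl had 1 to 5 in WT and 0 or 1 in KO, and C1qb, C1qc and Cd5l had none. The 3 markers measured had a median of 1.55 in WT and 0.72 in KO, and the part of other cells' RNA in Vcam1 was not tested. Prss34, a basophil protease, was at 374 and 976 CPM (1.95 and 3.36), with 183 of 434 KO UMIs in 1 cell. After doublet removal its KO ratio over other cells was -2.30, so it was then higher in the WT library only.

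**Figure D4:**
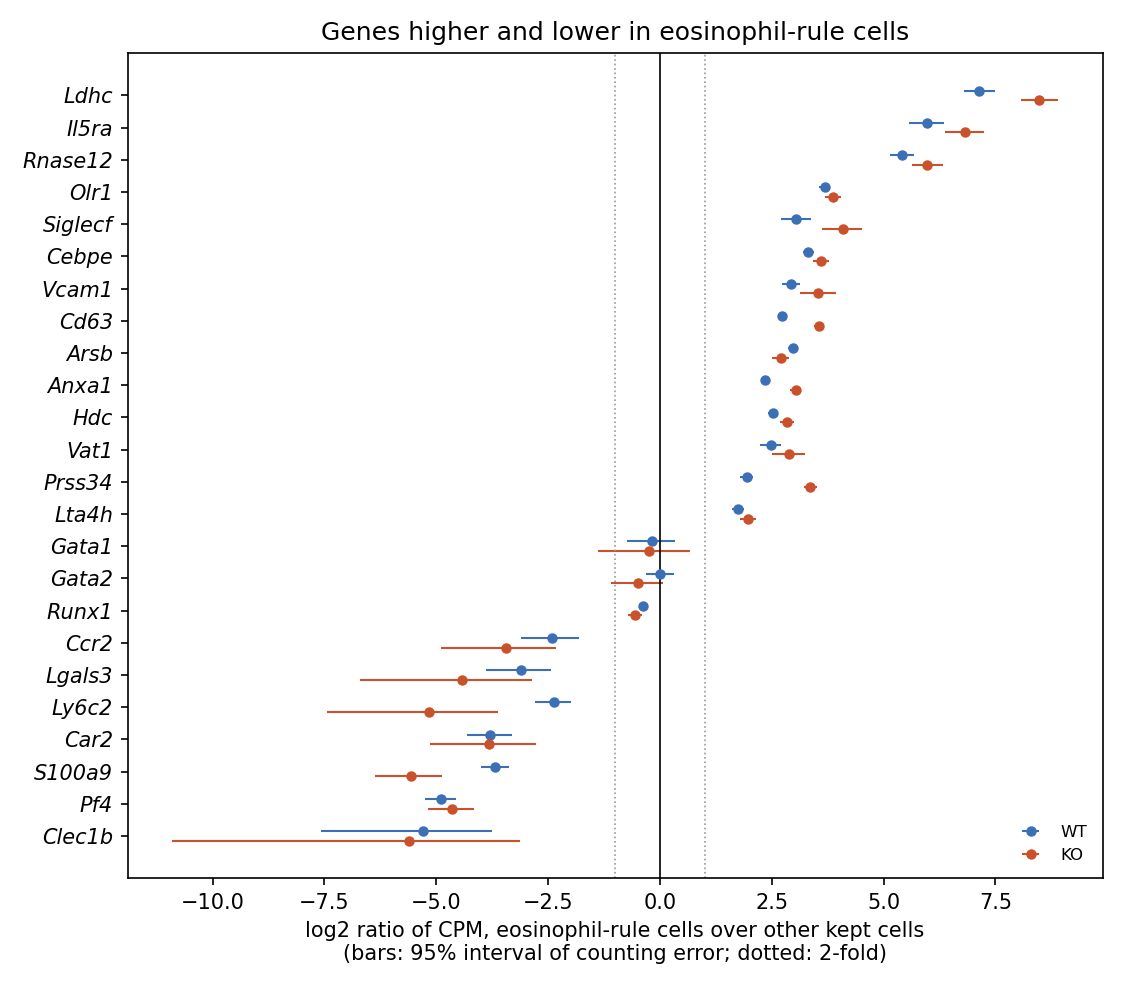
Log2 ratio of CPM in eosinophil-rule cells over all other kept cells of the same library for named genes, WT and KO as separate points, with 95% counting intervals and dotted lines at 2-fold. Ldhc, Il5ra and Rnase12 lie furthest right in both libraries, and Gata1, Gata2 and Runx1 near 0. Furthest left are Clec1b and Pf4 in WT, and Clec1b, S100a9 and Ly6c2 in KO.

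Transcription factors of the lineage were mixed. Of 24 on the list, 5 were at least 2-fold higher than in other cells in both libraries and 3 lower. Those higher were Cebpe, Gfi1 (46.9 and 40.5 CPM), Trib1 (34.2 and 63.0), Myb (642 and 587) and Lmo4 (197 and 299). Trib1, a pseudokinase that acts on C/EBPα, was 2.61 and 4.44 above other cells. The medians of the list were -0.08 and -0.36, beside -0.12 and -0.23 over all genes. Over all genes tested 2.16% were higher in both libraries and 5.18% lower.

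Gata2 was at 77.5 CPM in WT members and 77.0 CPM in other cells, and at 58.5 and 81.9 CPM in KO. Gata1, at 27.0 and 20.2 CPM, also stood within 0.25 of other cells on the log2 scale. Both are low in absolute terms, with 30 and 9 UMIs of Gata1 in all. Cebpa, a C/EBP factor of early granulocyte progenitors, had 21 and 3 UMIs, -0.55 (-1.24 to 0.07) relative to other cells in WT and -2.18 (-4.46 to -0.63) in KO. Id2 had 10 and 2 UMIs, -0.72 (-1.79 to 0.16) in WT and -2.27 (-5.32 to -0.42) in KO. For both, the interval lay below 0 in KO only, and whether the libraries differ in this was not tested.

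Among 23 surface and cytokine receptor genes, 20 passed 10 CPM, 3 were higher in both libraries and 5 lower, with medians of 0.27 in WT and -0.08 in KO. Those higher were Il5ra, Siglecf (69.4 and 103 CPM, 3.05 and 4.09) and Adgre4 (17.1 and 18.0 CPM, 2.08 and 1.28). For comparison, 2.16% of all genes tested were higher in both libraries and 5.18% lower. The partner chain Csf2rb, shared by the interleukin 3, interleukin 5 and GM-CSF receptors, was at 75.7 and 65.2 CPM, 0.73 and -0.17 relative to other cells. Of the receptor's chains only Il5ra passed 2-fold in both libraries.

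RNA of other lineages was measured in the same cells. Erythroid markers were lower by 2-fold in both libraries in 11 of 13 (Car2 at 31.5 and 15.7 CPM against 437 and 223), megakaryocyte markers in 7 of 8 (Pf4 at 64.9 and 76.5 against 1937 and 1921 CPM), and monocyte markers in 9 of 12. Maturing neutrophil markers were lower in 7 of 9 measured, and Ltf, Mmp9 and Ly6g had no UMI. Of all genes tested 5.18% were lower by 2-fold in both libraries. No cell held 10 UMIs of Car1 or Pf4.

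Primary granule RNA was present, as the order by Prg2 shows. Of 11 markers measured, 3 were higher in both libraries (Cebpe, Ms4a3 and Nkg7) and 1 lower, and the list's sum per cell ran from 0 through a median of 179 to 1804 UMIs in WT and from 2 through 143.5 to 1021 in KO. The shares over all genes tested were 2.16% higher and 5.18% lower. Mpo was at 3067 and 2548 CPM against 1792 and 1850 CPM in other cells. 19 of 41 WT and 7 of 18 KO cells held 10 or more Elane UMIs.

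Basophil and mast cell markers were also present: 6 of 11 were higher in both libraries and none lower, beside 2.16% and 5.18% of all genes tested. Cpa3, a mast cell protease also made by progenitors, was at 659 and 1001 CPM (1.09 and 1.36), and Ms4a2, a chain of the IgE receptor, at 86.5 and 169 CPM (1.05 and 2.60). The list's sum ran from 0 through 49 to 243 UMIs per WT cell and from 0 through 62 to 531 per KO cell. Fcer1a had 5 UMIs, all in 1 WT cell, and Gzmb, Mcpt4, Cma1, Tpsb2 and Tpsab1 had none. 5 WT and 2 KO cells held 10 or more Mcpt8 UMIs, a basophil protease.

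Genes of G2 and mitosis lay below their level in other cells. Of 35 such genes, 6 were at least 2-fold lower in both libraries and none higher, with medians of -0.85 in WT and -0.87 in KO, beside -0.12 and -0.23 over all genes. The share of all genes tested that were 2-fold lower in both libraries was 5.18%. Mki67 was at 91.9 and 103 CPM against 236 and 208 CPM, and it was found in 18 of 41 and 10 of 18 cells. Of 30 G1/S genes none passed 2-fold in both libraries. Genes of endoplasmic reticulum folding and secretion had medians of 0.27 and 0.45, with P4hb, a disulfide isomerase, at 488 and 564 CPM (1.15 in both).

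KO and WT eosinophil-rule cells were compared by their summed UMIs, 1109533 in WT and 444674 in KO. Of 8537 genes tested, 12.5% were at least 1.5-fold higher in KO and 17.0% at least 1.5-fold lower. Where counts were larger, at a mean of 100 CPM or more, these shares were 2.64% (38 of 1440) and 3.12% (45 of 1440). The ratios below stand against these shares, and they compare 18 cells of 1 library with 41 of another.

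Phf6, the deleted gene, had 45 UMIs in WT and 9 in KO members, 40.6 and 20.2 CPM, with an interval of the log2 ratio from -2.22 to 0.05. In the other kept cells the ratio was -1.02. A 3′ tag outside the deleted part would still be counted, so this does not check the knockout. Runx1 ran from 0 through 15 to 54 UMIs in WT and 0 through 21 to 70 in KO, with 697 and 821 CPM (0.24, 0.05 to 0.42), beside 0.42 in other cells. The labels do not say whether vector RNA is counted as Runx1.

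Il5ra ran from 0 through 1 to 9 UMIs in WT and from 0 through 2 to 27 in KO, a log2 ratio of 0.90 (0.41 to 1.39). 27 of its 63 KO UMIs came from 1 cell, and the ratio was 0.31 without the highest cell of each library. After doublet removal it was -1.20, and the 4 KO Il5ra UMIs left were all in the same cell. In other kept cells the ratio was 0.06.

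Anxa1, the annexin of granulocytes, had a median of 13 UMIs in WT (0 to 85) and 27 in KO (0 to 102), 672 and 1277 CPM, a log2 ratio of 0.93 (0.77 to 1.09) that was 0.89 without the top cells and 0.25 in other cells. Ldhc differed by 0.83 (0.48 to 1.18), 0.91 without the top cells and -0.51 in other cells. Serpina3g, a serine protease inhibitor, had 103 and 124 UMIs (1.59, 1.20 to 1.98), found in 27 of 41 and 17 of 18 cells. After doublet removal the Anxa1 ratio was 1.43, that of Serpina3g 1.33 and that of Ldhc 0.17. These ratios rest on the 4 KO cells left. The highest Anxa1 counts among those cells, 102 and 78 UMIs, were in cells without Epx, and the cell with Epx held 38. The highest Serpina3g count among them, 13 UMIs, was also in a cell without Epx. Pim1, a kinase induced by cytokines, was at 79.3 and 162 CPM, a log2 ratio of 1.03 (0.56 to 1.495). In other cells the Pim1 ratio was 0.72, within that interval. Top2a, a topoisomerase of dividing cells, was at 114 and 207 CPM (0.87, 0.46 to 1.26), which was -2.06 after doublet removal. In other cells the ratios of Serpina3g and Top2a were 0.05 and 0.02.

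The basophil and mast cell list was higher in KO members in 7 of 10 genes measured and lower in none, beside 12.5% and 17.0% of all genes tested. Its median was 0.78, beside -0.05 over all genes. Mcpt8 ran from 0 through 0 to 62 UMIs in WT and from 0 through 1 to 144 in KO, a log2 ratio of 1.59 (1.26 to 1.92). 144 of its 170 KO UMIs came from 1 cell with 227 Prg2 UMIs, and without the top cells the ratio was -0.19. Prss34 differed by 1.38 (1.19 to 1.58) and by 1.11 without the top cells. After doublet removal the list's median was -0.66, with Prss34 at -4.82, Mcpt8 at -3.18 and Ms4a2 at -0.96.

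Among the named genes at a mean of 100 CPM or more, the 2 with the lowest KO over WT ratios had most of their UMIs in a few cells. S100a8, a calcium-binding protein of neutrophils and monocytes, was at 743 and 56.2 CPM (-3.72, -4.36 to -3.15), with medians of 1 UMI in both and 503, 175 and 105 UMIs in the 3 highest WT cells against 9 in the highest KO cell. Those 3 WT cells held 10 to 13 Prg2 UMIs, and with a Prg2 minimum of 20 UMIs the ratio was 0.29, while it was -2.99 without only the highest cell of each library. F13a1 was at 190 and 47.2 CPM (-2.01, -2.73 to -1.36), with 96, 69 and 27 UMIs in 3 WT cells and 19 of 21 KO UMIs in 1 cell, and the ratio was -4.45 without the highest cell of each library. All 4 of these cells were among the barcodes with the highest doublet scores. Sox4, a progenitor transcription factor, was at 184 and 92.2 CPM, a log2 ratio of -1.29 without the top cells and 0.42 in other cells. Slpi, a protease inhibitor, was at 324 and 173 CPM (-0.90, -1.28 to -0.54; -1.06 without the top cells, which held 118 of 359 WT and 33 of 77 KO UMIs).

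Interferon response genes ran higher in KO members, in 10 of 21 measured with 2 lower and a median of 0.57. Over all genes tested in the members 12.5% were higher and 17.0% lower, with a median of -0.05. In the other kept cells 20 of 30 interferon genes were higher, with a median of 0.79, and no share over all genes was computed for those cells. Ifitm1, an interferon-induced membrane protein also listed with basophil markers, was at 38.8 and 184 CPM (2.25, 1.70 to 2.82; 1.04 in other cells), and its ratio was -0.62 after doublet removal. B2m, the light chain of MHC class I, was at 921 and 1435 CPM (0.64, 0.49 to 0.78; 0.42 in other cells). Whether any of these ratios differ between eosinophil-rule and other cells was not tested.

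Other lists differed less. Of 25 ribosome biogenesis genes 5 were lower in KO members and none higher, with a median of -0.40 beside -0.28 in other cells. Of 18 genes of the Phf6, Runx and NuRD list 4 were lower and none higher (median -0.28). Transcription factors gave 3 higher and 4 lower of 22, and receptors 3 higher and 2 lower of 16. For comparison, 12.5% of all genes tested in the members were higher in KO and 17.0% lower. The counts of genes lower in these lists were near that share.

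**Figure D5:**
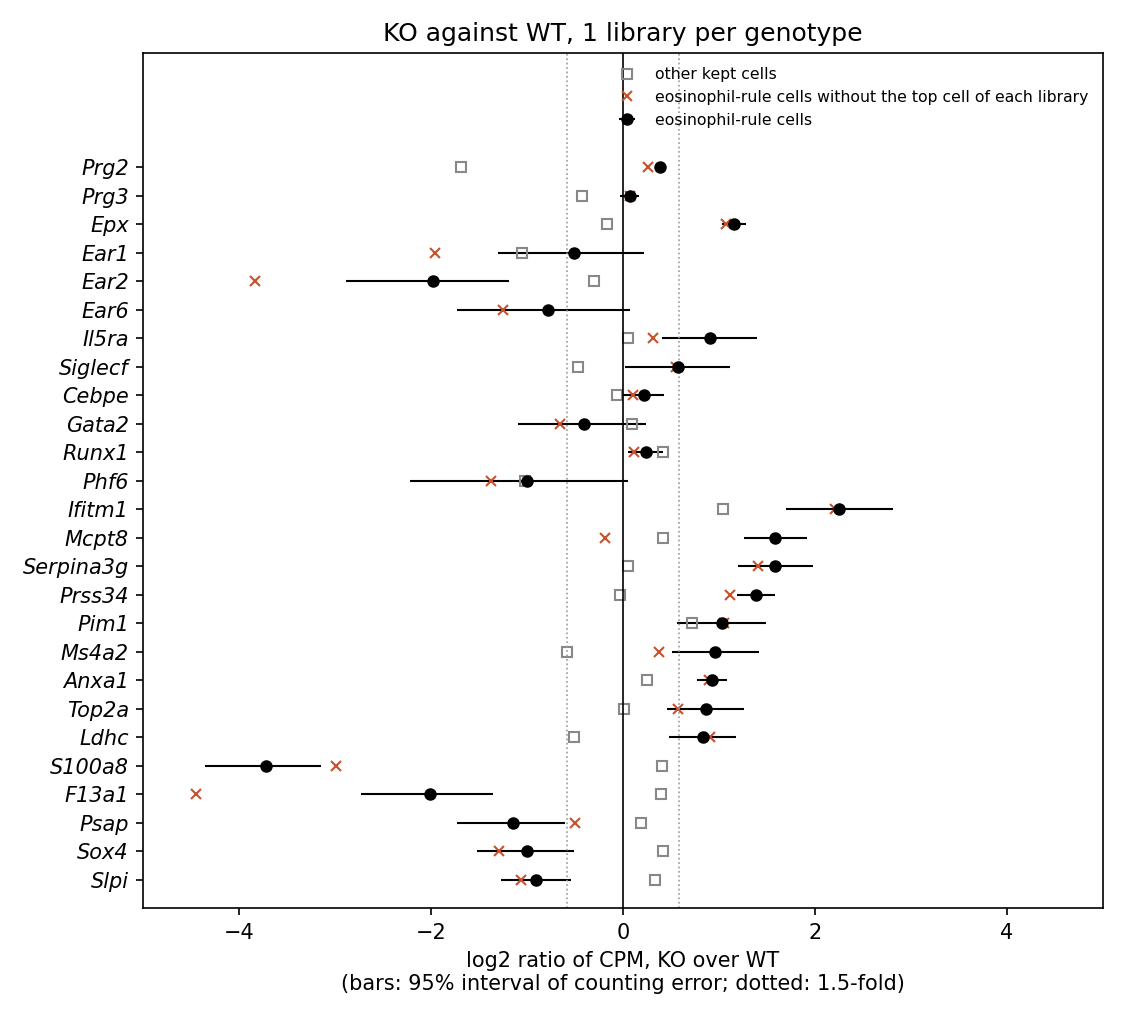
Log2 ratio of CPM, KO over WT, for named genes: black points are eosinophil-rule cells with 95% counting intervals, crosses the same without the top cell of each library, open squares all other kept cells (a gene with no UMI in other KO cells has no square), and dotted lines 1.5-fold. Among the crosses that lie far from their points are those of Mcpt8, F13a1, Ear1, Ear2 and Il5ra, while those of Epx, Anxa1 and Ldhc lie close.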

How the data were processed

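The authors deposited filtered 10x matrices of UMI counts per gene and barcode, not normalised. Cell Ranger 3.0.1 and GRCm38 are named in the submitters' processing notes, while the matrix headers name Cell Ranger 6.0.2. The libraries held 131667969 (WT) and 120408100 (KO) UMIs in 5287 and 5260 barcodes. Cells were kept at 500 or more genes and up to 10% mitochondrial UMIs, which left medians of 25206 and 21982.5 UMIs. 10 barcode sequences occurred in both libraries, none of them in an eosinophil-rule cell.

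UMIs were summed over cells of a set and scaled to CPM. Log2 ratios carry exact conditional binomial 95% intervals, and genes entered at 10 CPM or more in either set. A fold of 1.5 (KO against WT) or 2 in both libraries (members against others) was called. With 1 library per genotype no test was run. Fixed lineage genes, genes with the largest ratios at 100 CPM or more found in at least 25% of the cells, and list members were named. The 10 genes most like Prg2 by correlation were also taken. The members and lists were chosen with earlier results of these data known. Doublets were not removed; as an alternative the barcodes with the highest Scrublet scores (0.8% per 1000 barcodes) were left out. Other alternatives were the rule's minimums, TMM factors (edgeR 4.0.16), median-of-ratios factors, per-cell means and the CPM minimum. Python 3.11.15, scanpy 1.11.5, scipy 1.17.1 and R 4.3.3 were used, and the ratio code was tested on simulated data. Promoter windows came from RefSeq (GRCm38.p6) and gene positions from GENCODE. Some genes that the naming rule takes are not reported here.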

Additional observations from a re-analysis of the deposited data

How the results depend on the processing

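Each genotype is 1 library, so all values compare libraries, and 18 KO cells limit every KO ratio. No paired analysis was possible because each genotype has 1 library and the columns carry no replicate numbers. The share of eosinophil-rule cells was lower in KO under all 9 alternatives. Doublet removal left 4 KO cells (0.0849%), of which only 1 had Epx, and gave 2050 genes higher and 2524 lower in KO members. It turned the KO over WT ratios of Epx (-0.092), Il5ra (-1.20), Ifitm1 (-0.62), Mcpt8 (-3.18), Prss34 (-4.82), Ms4a2 (-0.96) and Top2a (-2.06), the KO ratio of Prss34 over other cells (-2.30), and the medians of the basophil and mast cell list (-0.66), the monocyte list (1.62) and, against other cells in KO, the lymphoid-primed list (0.53). The cause was not tested. Mcpt8 was -0.19 without its highest cells, and S100a8 was 0.29 with a Prg2 minimum of 20 UMIs. The maturing neutrophil list, of 4 genes, turned to 0.62 and 0.20 with a Prg2 minimum of 20 and 50 UMIs, to 0.78 with means per cell and to 0.95 without a CPM minimum. Means per cell gave 2235 genes lower in KO members and turned Cebpa (2.45) and Rdm1 (0.59). A minimum of 50 CPM gave 89 genes higher and 110 lower in members than in other cells, and 195 higher and 281 lower in KO members. With no minimum beyond 1 UMI these counts were 409, 8778, 2466 and 4228, and the B and plasma cell list turned to 1.03. In members with 100 or more Prg2 UMIs and up to 200 Mpo and Elane UMIs, a set added after seeing the data, 693 genes were lower than in other cells.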

Other observations

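1 KO barcode met the gene part of the rule but had 481 genes, below the minimum, with 623 UMIs, 21 of Prg2, 1 of Prg3 and 3 of Ear6. Among Jchain-rich barcodes, 46 in WT and 2 in KO held 10 or more Prg2 UMIs; summed over the 46 WT barcodes, Ldhc had 1 UMI and Rnase12 none.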
